A study of Rattus norvegicus with 9 samples.

Results

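Transcripts of 9 regulators of plasminogen activation and blood coagulation were followed in rat chondrocytes, the matrix-forming cells of cartilage. The members were every row of the deposited table named Plau, Plaur, Plat, Serpine2, F3, Tfpi, Tfpi2, Thbd or Procr, which gave 9 of 18924 genes, and all 9 passed the filter on low counts. Primary cells from Sprague-Dawley (SD) rats at passage 1 or 2 were held for 24 h in rat plasma (RP, n = 3), in the same plasma after thrombin was added (RPT, n = 3), or with both thrombin and an inhibitor (RPTi, n = 3), of which the name and target are not in the labels. All 3 groups therefore contained rat plasma, and no library without plasma, or with the inhibitor but without thrombin, was analysed here. Age, sex and the number of rats are not given, and nothing says whether the libraries of a group are separate cultures, so the p-values here reflect variation among these libraries alone, possibly technical. Because RNA came from whole cultures, fewer cells of a type and less RNA per cell cannot be told apart.

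Plasminogen is turned into plasmin, a protease that dissolves fibrin, cleaves matrix proteins and activates pro-collagenases. Urokinase (Plau), held at the cell surface by its receptor (Plaur), and tissue-type activator (Plat) make that cut, and serpins such as protease nexin-1 (Serpine2) block it. Tissue factor (F3) starts coagulation and leads to thrombin, the Kunitz-type inhibitor Tfpi stops tissue factor and its factor partners, and the related matrix-bound Tfpi2 inhibits plasmin and other serine proteases. Thrombomodulin (Thbd) and the endothelial protein C receptor (Procr) turn thrombin towards the anticoagulant protein C. In cartilage the plasminogen system is known for its part in matrix breakdown, and thrombin reaches chondrocytes when plasma enters the joint.

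The cells carried chondrocyte markers throughout, with 8 of 8 measured, but at levels that set the groups apart. Their summed FPKM (count per gene length and library total) was 9580 to 9780 in plasma, 5880 to 6350 after thrombin and 14200 to 15300 in RPTi; 8 of 8 fell with thrombin, 8 of 8 rose in RPTi against RPT and 6 rose against RP. Of the 5 fibroblast markers, Col1a1, Col3a1 and Thy1 were also abundant (means of 2083, 752 and 423 FPKM in RP). Pdgfra was at 43.5 and Dpt at 1.22 FPKM there. The fibroblast markers summed to 3170 to 3390, 2060 to 2220 and 3010 to 3280 FPKM in the same order. With thrombin 4 of 5 fell, while in RPTi against RPT 3 rose and 2 fell. Smooth muscle and pericyte markers summed to 139 to 152, 110 to 131 and 412 to 505 FPKM, with 1 of 4 tested falling with thrombin and 4 of 4 rising in RPTi against either group. Acta2 and Cspg4 carried that sum (73.7 and 69.4 FPKM in RP). Myh11 and Cnn1 were at 1.38 and 1.30 FPKM in RP, and Rgs5 had at most 2 counts in any library. The part of these shifts in the changes of the 9 genes was not tested. The endothelial genes Cdh5 and Emcn had at most 2 and 1 counts in any library, and the leukocyte gene Ptprc at most 4. Library totals ranged from 31877265 to 43962783 counts, so that 1 count stood for 0.0227 to 0.0314 CPM (a count scaled to the library's size). The CPM values of genes also carry the TMM factor of their library.

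RefSeq promoter windows (build GRCr8, 250 bases before to 50 after a transcript start) were matched for 6 of the 9 members. Sequences are shown for 5 of them: Plaur, Tfpi2, Procr and Serpine2, which had the largest fold changes under thrombin, and Plau, which with Serpine2 was lower in RPTi than in plasma alone. The search covered both strands for TGANTCA, the letters of an AP-1 site bound by FOS and JUN proteins, for GGGCGG, a GC box, and for the TATA box letters TATAAA. The AP-1 letters TGANTCA were present in 3 of the 7 member windows (Tfpi has 2) and in 7.33% of all 33469 windows. The 3 windows belonged to Plaur (first base at -83 from the start), Tfpi2 (-80) and Procr (-217), and no window of Plau, Serpine2 or Tfpi held those letters. GGGCGG was found in windows of 5 members and in 33.1% of all windows, and TATAAA in 0 of the 7 and in 14.2% of all. A match is a description of the letters, not a binding site. In the first 3 sequences below, capitals mark TGANTCA, and in the last pair they mark GGGCGG or its reverse complement, present 6 times for Serpine2, partly overlapping, and 3 times for Plau. Each is the 250 bases before the start, 5′ to 3′, at chr1:89181113-89181362 (plus strand), chr4:32941277-32941526 (minus), chr3:164714477-164714726 (plus), chr9:88637203-88637452 (minus) and chr15:3511988-3512237 (minus).
Plaur: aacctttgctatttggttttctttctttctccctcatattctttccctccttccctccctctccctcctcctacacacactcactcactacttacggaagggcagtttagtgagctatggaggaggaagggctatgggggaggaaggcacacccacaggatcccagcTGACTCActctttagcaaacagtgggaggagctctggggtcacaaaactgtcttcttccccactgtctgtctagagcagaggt
Tfpi2: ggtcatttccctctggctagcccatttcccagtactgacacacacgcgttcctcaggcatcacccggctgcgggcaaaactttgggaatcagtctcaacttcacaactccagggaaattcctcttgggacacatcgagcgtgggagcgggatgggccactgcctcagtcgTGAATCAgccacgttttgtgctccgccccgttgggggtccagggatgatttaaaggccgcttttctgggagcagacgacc
Procr: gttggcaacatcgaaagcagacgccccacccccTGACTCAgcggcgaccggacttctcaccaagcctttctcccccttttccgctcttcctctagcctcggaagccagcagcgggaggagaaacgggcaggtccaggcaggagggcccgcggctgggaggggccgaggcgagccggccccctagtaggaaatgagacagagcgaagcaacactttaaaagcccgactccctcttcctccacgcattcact
Serpine2: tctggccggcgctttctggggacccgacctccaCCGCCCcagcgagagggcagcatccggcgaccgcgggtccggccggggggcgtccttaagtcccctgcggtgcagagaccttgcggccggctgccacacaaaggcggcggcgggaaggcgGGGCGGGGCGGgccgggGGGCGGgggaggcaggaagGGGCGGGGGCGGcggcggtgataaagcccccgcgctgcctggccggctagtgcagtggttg
Plau: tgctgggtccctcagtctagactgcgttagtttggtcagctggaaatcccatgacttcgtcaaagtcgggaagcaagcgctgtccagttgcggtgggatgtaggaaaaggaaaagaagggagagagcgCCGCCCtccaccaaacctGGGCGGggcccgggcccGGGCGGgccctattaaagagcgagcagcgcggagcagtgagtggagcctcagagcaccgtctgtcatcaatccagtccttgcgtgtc

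Across the 3 groups 7 of the 9 members differed (edgeR quasi-likelihood F test, adjusted p below 0.05), against 46.7% of the 13856 genes tested. Tfpi (adjusted p = 0.608) and Plat (adjusted p = 0.0504) did not pass. With thrombin, 6 members rose and 0 fell, where 13.6% of all tested genes rose and 15.2% fell (28.9% either way). Of the members, 5 had all RPT libraries above all RP libraries and 0 below, where 20.0% of all genes stood above and 20.5% below (40.4% either way). With the inhibitor added to thrombin, 6 fell and 1 rose, where 21.1% of all genes fell and 20.4% rose (41.5% either way). Those 6 had every RPTi library below every RPT library and the other member above, beside 26.0% and 24.8% of all genes (50.8% either way). The median log2 fold change of the 9 was 0.53 for RPT minus RP and -0.76 for RPTi minus RPT, beside -0.001 and -0.008 over all genes. These comparisons share the RPT libraries, so that a high RPT value moves them in opposite directions. In the comparison of RPTi with RP, 2 members rose and 2 fell, where 11.9% of all genes rose and 12.3% fell (24.2% either way). Here 4 members had non-overlapping libraries above RP and 2 below, beside 21.7% and 22.2% of all genes (43.9% either way). The balance of all calls depended on scaling: 49.2% of the calls in RPTi minus RPT were rises with TMM scaling and 38.4% with library totals alone, and 49.1% and 36.6% in RPTi minus RP. No call among the 9 members changed with that choice. The 9 were chosen with earlier results of these data known, so their counts beside the shares of all genes are descriptions.

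**Figure D1:**
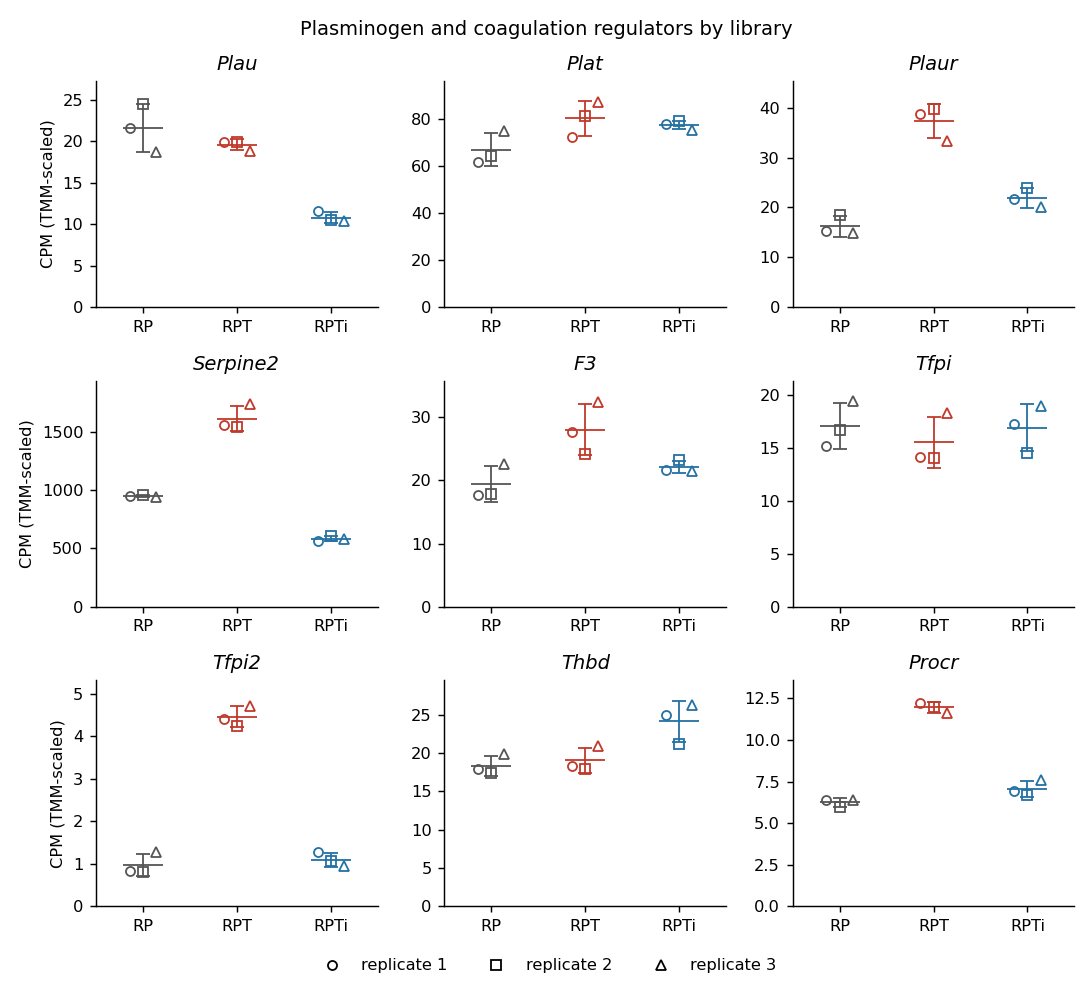
TMM-scaled CPM (y axis, linear, from 0) of each of the 9 genes in RP, RPT and RPTi, with 1 symbol per library, the mean as a horizontal bar and the SD as a vertical one. The RPT libraries stand above both other groups for Tfpi2, Plaur, Procr, Serpine2 and F3, while Plau is low in RPTi alone and Tfpi overlaps in all 3 groups.

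Among the proteases and their receptor, the urokinase receptor was the one that rose most with thrombin. Plaur (ENSRNOG00000037931) was at 15.2, 18.6 and 14.8 CPM in RP, at 38.7, 39.7 and 33.4 CPM in RPT and at 21.6, 24.0 and 20.1 CPM in RPTi. The 3 groups did not overlap, with RPT highest and RPTi between the others. The receptor rose 2.30-fold with thrombin (log2 fold change 1.204, SE 0.106, adjusted p = 3.94e-06, edgeR), and 4.53% of all tested genes had a larger absolute change. It was 1.70-fold lower in RPTi than in RPT (-0.77, SE 0.10, adjusted p = 7.47e-05), but stayed 1.35-fold above RP (0.44, SE 0.11, adjusted p = 0.0104). The last call was lost without RPTi replicate 2 (0.37, adjusted p = 0.0524).

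Plau (ENSRNOG00000010516), the receptor's ligand, did not follow it. Its values were 21.6, 24.5 and 18.7 CPM in RP, 19.98, 19.97 and 18.88 CPM in RPT, and 11.6, 10.5 and 10.4 CPM in RPTi. RP and RPT overlapped and every RPTi library lay below both. For RPT minus RP the log2 fold change was -0.14 (95% interval -0.35 to 0.08, adjusted p = 0.327). Plau was 1.82-fold lower in RPTi than in RPT (log2 fold change -0.86, SE 0.10, adjusted p = 2.26e-05) and 2.00-fold lower than in RP (-1.001, SE 0.102, adjusted p = 1.67e-05). Urokinase transcript thus lay below the plasma level when inhibitor was present, whereas the receptor lay above it.

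The tissue-type activator changed little. Plat (ENSRNOG00000019018) was at 61.8, 64.2 and 75.1 CPM in RP, 72.6, 81.3 and 87.2 CPM in RPT, and 78.2, 79.0 and 75.4 CPM in RPTi. RP and RPT overlapped, RPTi lay inside the RPT range, and the highest RP library was just under the lowest RPTi one. Its log2 fold change with thrombin was 0.26 (SE 0.09, adjusted p = 0.0373), a 1.199-fold rise at the edge of the threshold. Leaving out single libraries ended the call in 7 of 9 cases: RP replicate 1 (0.21, adjusted p = 0.154), RP replicate 2 (0.23, 0.115), RPT replicate 2 (0.25, 0.0761), RPT replicate 3 (0.20, 0.108) and RPTi replicates 1 to 3 (0.26 each, 0.0604, 0.0543 and 0.0551). A fit of RP and RPT alone ended it too (0.27, adjusted p = 0.0638). Plat did not pass in RPTi minus RPT (-0.05, interval -0.24 to 0.13, adjusted p = 0.667) or in RPTi minus RP (0.21, interval 0.02 to 0.40, adjusted p = 0.0955, but 0.0237 without RP replicate 3).

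Serpine2 (ENSRNOG00000015461), which inhibits thrombin, urokinase and plasmin, had the highest level of the 9 in every group. It was at 952, 956 and 939 CPM in RP, at 1556, 1543 and 1737 CPM in RPT and at 567, 607 and 577 CPM in RPTi. No 2 groups overlapped, and the RP libraries lay closest together. Serpine2 was 2.76-fold lower in RPTi than in RPT (log2 fold change -1.47, SE 0.06, adjusted p = 1.62e-09), the smallest p among the 9 members in any comparison. It was also 1.63-fold lower in RPTi than in RP (-0.70, SE 0.06, adjusted p = 2.69e-06), after a rise of 0.76 with thrombin (SE 0.06, adjusted p = 1e-06). Plau and Serpine2 were the members that fell below plasma alone.

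Tissue factor rose with thrombin and its inhibitor Tfpi did not pass in any comparison. F3 (ENSRNOG00000011800) was at 17.7, 17.9 and 22.7 CPM in RP, at 27.6, 24.2 and 32.4 CPM in RPT and at 21.7, 23.3 and 21.4 CPM in RPTi. All RPT libraries were above all others, while RP and RPTi overlapped through RP replicate 3. F3 rose 1.45-fold with thrombin (log2 fold change 0.53, SE 0.12, adjusted p = 0.00469), a call that held without any single library. In RPTi it was 1.27-fold lower than in RPT (-0.34, SE 0.12, adjusted p = 0.0325). That call was lost without RPT replicate 1 (-0.36, adjusted p = 0.0619) or 3 (-0.23, 0.128), and without any one of the RPTi libraries (-0.33, 0.0938 for replicate 1, -0.38, 0.0502 for 2 and -0.32, 0.0931 for 3). Against RP it did not pass (0.19, interval -0.07 to 0.45, adjusted p = 0.274).

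Tfpi (ENSRNOG00000005039) was at 15.2, 16.7 and 19.4 CPM in RP, at 14.1, 14.1 and 18.3 CPM in RPT and at 17.3, 14.5 and 18.9 CPM in RPTi. The groups overlapped in every pairing and replicate 3 was the highest library in each. Its 95% intervals were -0.43 to 0.15 for RPT minus RP (adjusted p = 0.478), -0.16 to 0.41 for RPTi minus RPT (0.488) and -0.30 to 0.27 for RPTi minus RP (0.951). Differences within those bounds are not excluded with 3 libraries a group.

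Tfpi2 (ENSRNOG00000010513) was the least abundant member and changed most. Its counts were 37, 27 and 48 in RP, 169, 137 and 155 in RPT and 46, 33 and 34 in RPTi, or 0.837, 0.804 and 1.27, then 4.42, 4.24 and 4.73, then 1.28, 1.07 and 0.949 CPM. The RPT libraries stood apart, and RP and RPTi overlapped. It rose 4.59-fold with thrombin (log2 fold change 2.20, SE 0.22, adjusted p = 1.07e-05), and 0.888% of tested genes had a larger absolute change. It was 4.05-fold lower in RPTi than in RPT (-2.02, SE 0.22, adjusted p = 1.03e-05). RPTi against RP gave 0.18 (interval -0.33 to 0.69, adjusted p = 0.622).

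The protein C arm split. Procr (ENSRNOG00000019330) was at 6.40, 5.96 and 6.39 CPM in RP, at 12.24, 12.01 and 11.62 CPM in RPT and at 6.93, 6.69 and 7.59 CPM in RPTi. RPT lay well above both other groups, and the RPTi libraries lay narrowly above those of RP. The receptor rose 1.91-fold with thrombin (log2 fold change 0.93, SE 0.10, adjusted p = 1.22e-05) and was 1.69-fold lower with inhibitor (-0.76, SE 0.10, adjusted p = 3.64e-05). Against RP the difference of 0.18 did not pass (adjusted p = 0.207). Summed over 7 of 8 listed endothelial markers, FPKM was highest in RPT (1.92 to 2.45), against 0.891 to 1.16 in RP and 0.649 to 0.749 in RPTi. Plvap (means of 0.617, 1.69 and 0.461 FPKM in RP, RPT and RPTi) and Flt1 (0.288, 0.461 and 0.111) carried that sum. Of the 3 tested, Flt1 and Plvap rose with thrombin. Tek did not pass, and its mean was lowest in RPT (0.351, 0.242 and 0.501 CPM in the same order). Kdr, not tested, was at 0.0319, 0.0235 and 0.0247 FPKM. Cdh5 was at 0 in 8 of 9 libraries and Emcn in 7 of 9. The summed FPKM of 5 of 6 macrophage markers was also highest in RPT (27.3 to 28.6, against 14.1 to 16.5 in RP and 14.2 to 16.8 in RPTi), carried by Cd14. Of the 3 macrophage markers tested, Cd14 and Cd68 rose with thrombin and Csf1r fell (0.945 ± 0.209 to 0.488 ± 0.118 CPM, adjusted p = 0.0449), and Ptprc was at 0 to 4 counts. Their part in the change of Procr was not tested.

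Thbd (ENSRNOG00000004687) was at 17.9, 17.3 and 19.8 CPM in RP and 18.4, 17.9 and 20.9 CPM in RPT, with overlap. RPT minus RP did not pass (log2 fold change 0.06, interval -0.16 to 0.27, adjusted p = 0.728). Differences within that interval are not excluded. In RPTi Thbd was at 25.0, 21.1 and 26.3 CPM, above every library of the other groups. Thbd was the only member that was higher in RPTi than in RPT by the test (1.27-fold, log2 fold change 0.34, SE 0.10, adjusted p = 0.0151), and it was 1.32-fold above RP (0.40, SE 0.10, adjusted p = 0.0116). The call against RPT was lost when RPT replicate 1 was left out (0.32, adjusted p = 0.0553), or either RPTi replicate 1 (0.32, 0.0595) or 3 (0.28, 0.0743), and with limma on log2(FPKM + 1) (0.23, 0.0642) or log2(FPKM + 0.1) (0.26, 0.064). The call against RP was lost without RPTi replicate 1 (0.37, 0.0554) or RPTi replicate 3 (0.33, 0.0596).

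**Figure D2:**
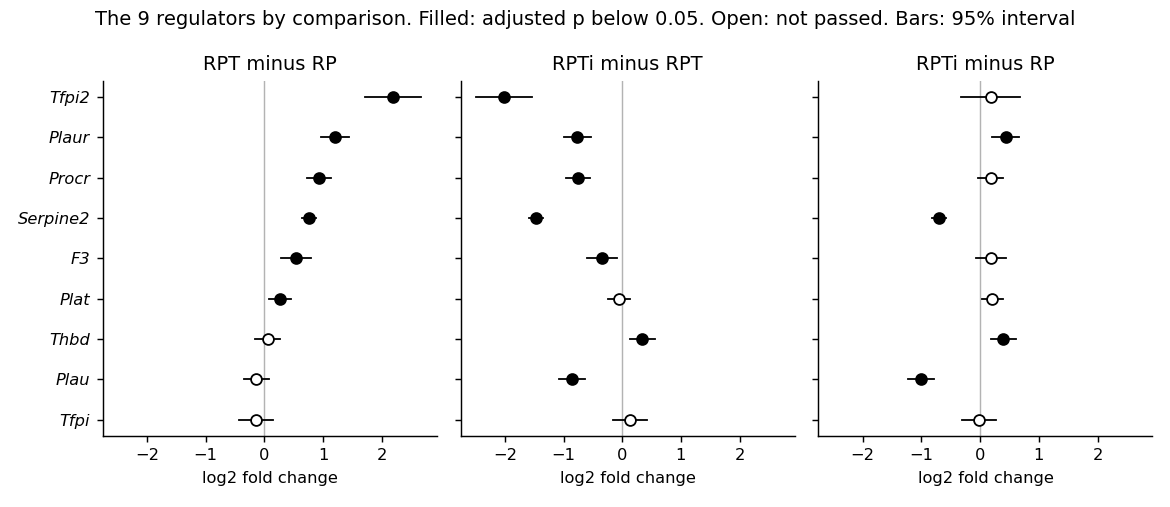
Log2 fold change (x axis) of the 9 genes in the 3 comparisons, with bars for the 95% interval and filled points where the adjusted p is below 0.05. Tfpi2, Plaur, Procr, Serpine2 and F3 lie right of 0 in RPT minus RP and left of 0 in RPTi minus RPT, and only Serpine2 and Plau are filled left of 0 in RPTi minus RP.

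Levels between genes were compared on FPKM, which divides by gene length. In RP, Serpine2 was at 445.7 ± 1.06 FPKM (SD, n = 3), above 98.9% of tested genes, and Tfpi2 at 0.541 ± 0.149 FPKM, above 13.3%. Between them lay Plat (26.6 ± 2.99), Plaur (15.9 ± 1.94), Plau (11.6 ± 1.49), F3 (10.8 ± 1.64), Thbd (5.06 ± 0.398), Tfpi (4.45 ± 0.596) and Procr (4.29 ± 0.197 FPKM). Plau and F3, Thbd and Tfpi, and Tfpi and Procr were neighbours whose libraries overlapped, and the other neighbours did not overlap. In RPT the receptor Plaur (37.1 ± 3.53 FPKM) moved level with Plat (32.3 ± 2.66 FPKM), their libraries overlapping, and F3 moved above Plau and Procr above Thbd. In RPTi Plau (5.59 ± 0.322 FPKM) came down to the level of Thbd (6.42 ± 0.728 FPKM), again with overlap. Serpine2 stayed first and Tfpi2 last in all 3 groups.

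**Figure D3:**
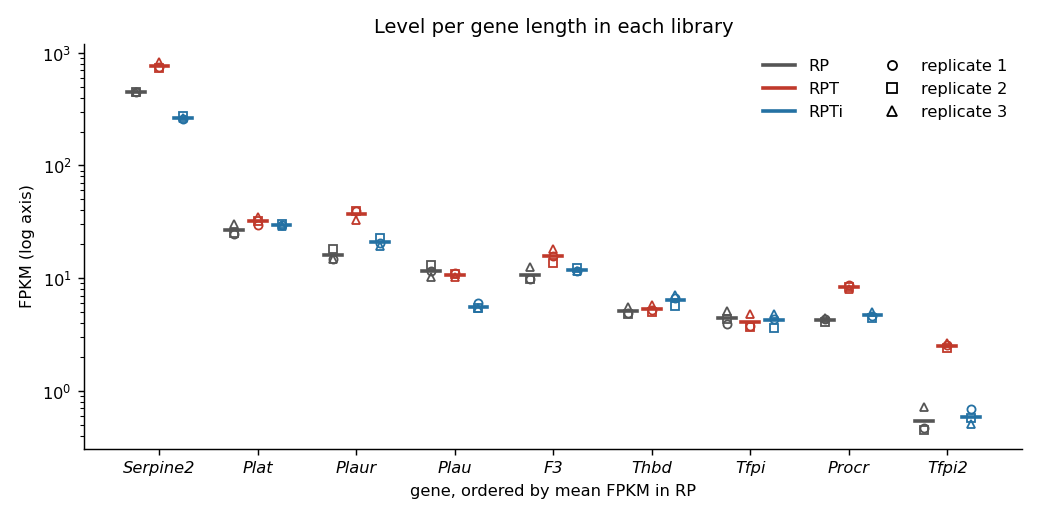
FPKM (log y axis) of the 9 genes, ordered by their RP mean, with a symbol per library and a bar at each group's mean. Serpine2 stands apart above 250 FPKM in every library, and Tfpi2 is at 2.37 to 2.65 FPKM in RPT and at most 0.712 FPKM in the other groups.

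Ratios of FPKM within a library do not depend on how libraries are scaled and show how partners moved against each other. They are given without a test, since 3 libraries against 3 cannot reach a permutation p below 0.10. The ratio of tissue factor to Tfpi was 2.49, 2.28 and 2.48 in RP, 4.15, 3.66 and 3.75 in RPT and 2.67, 3.41 and 2.41 in RPTi, with every RPT library above the rest and RPTi replicate 2 nearest to them. Tfpi exceeded Tfpi2 by 1.49 to 1.81 times in RPT, against 7.17 to 9.68 times in RP and 6.30 to 9.31 times in RPTi. Plaur to Plau was 1.29 to 1.45 in RP, and about as high in RPTi (3.43 to 4.19) as in RPT (3.23 to 3.64), with overlap. In RPT the high ratio came with more Plaur at a Plau level overlapping RP. In RPTi it came with 2.00-fold less Plau and 1.35-fold more Plaur than in RP. Serpine2 to Plat was lowest in RPTi (8.59 to 9.10), higher in RP (14.8 to 18.3) and highest in RPT (22.5 to 25.4), with no overlap, whereas Serpine2 to Plau in RPTi (42.9 to 50.7) overlapped RP (34.0 to 43.9). Procr to Thbd was above 1 in RPT alone (1.38 to 1.67), at 0.802 to 0.890 in RP and at 0.689 to 0.786 in RPTi.

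**Figure D4:**
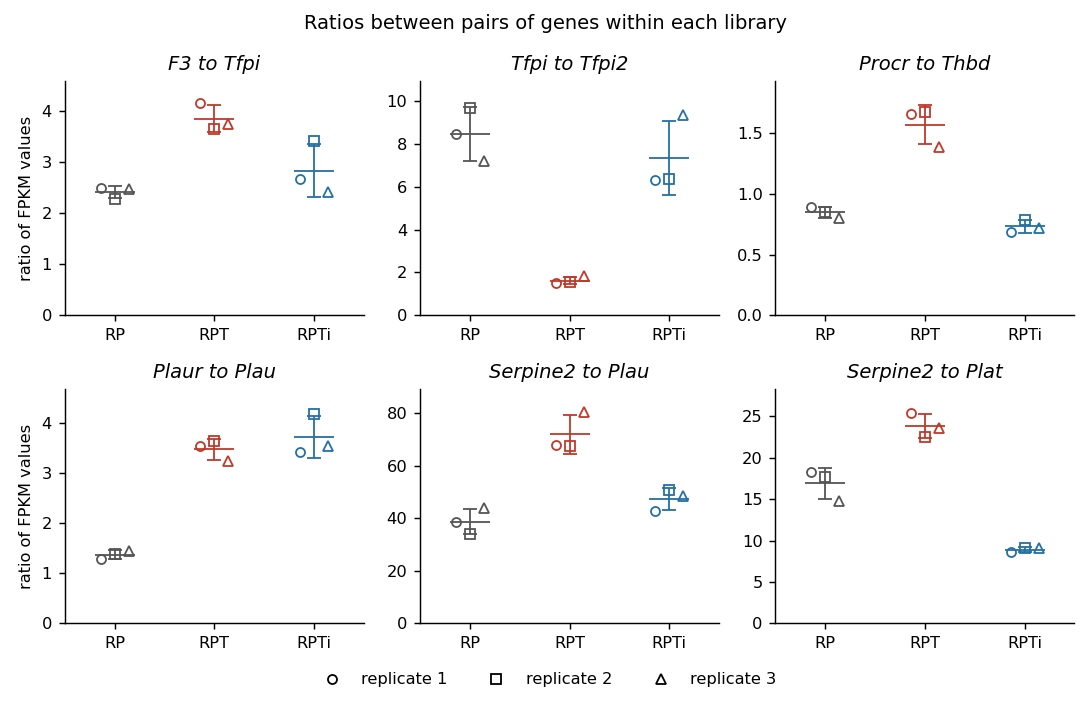
Ratio of FPKM values within each library (y axis, linear, from 0) for 6 pairs of genes, with a symbol per library, the mean as a horizontal and the SD as a vertical bar. Tfpi to Tfpi2 drops to 1.49 to 1.81 in RPT, and Plaur to Plau is high in both thrombin groups.

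Of 48 further genes listed for the same pathways, 37 were in the table and 25 were tested. With thrombin 5 rose and 8 fell, with inhibitor against thrombin 10 rose and 6 fell, and in RPTi against RP 7 rose and 5 fell. Over all tested genes the shares risen and fallen were 13.6% and 15.2%, 20.4% and 21.1%, and 11.9% and 12.3%. Their median log2 fold changes were -0.04, 0.20 and 0.02, beside -0.001, -0.008 and -0.006 over all genes. The 12 genes in the table that were not tested had at most 13 counts in any library. Among them were plasminogen itself (Plg, at most 5 counts), factor VII (F7, at most 1), the partner of tissue factor, and protein C (Proc, at most 8).

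Among the inhibitor genes, the serpin gene Serpinb2, named after its values were seen, rose with thrombin (0.92, SE 0.27, adjusted p = 0.0206). It was lower in RPTi than in RPT (-0.72, adjusted p = 0.044). Its values were 2.78, 4.11 and 6.66 CPM in RP, 10.98, 7.34 and 7.17 in RPT, and 5.90, 4.46 and 5.11 in RPTi. The Serpinb2 calls were not rerun under alternatives or with libraries left out. The neuroserpin gene Serpini1, whose product inhibits tissue-type activator, fell 2.88-fold with thrombin (10.38 ± 1.256 to 3.60 ± 0.370 CPM, adjusted p = 6.38e-06) and was at 9.34 ± 1.42 CPM in RPTi. The C1 inhibitor gene Serping1 did not pass with thrombin (0.10, adjusted p = 0.68) and was 1.52-fold higher in RPTi than in RPT (adjusted p = 0.00562).

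Of the 3 tested clotting factor genes, factor V (F5), the cofactor of thrombin formation, fell with thrombin (adjusted p = 0.000267, edgeR) and was lower again with inhibitor (adjusted p = 0.000246). Its means were 66.6 ± 10.0 CPM with plasma, 40.5 ± 2.73 CPM with thrombin and 25.2 ± 2.37 CPM in RPTi. Factor XIII subunit A (F13a1), which cross-links fibrin, was at 2.74 ± 0.364, 1.81 ± 0.258 and 3.93 ± 0.316 CPM. Its rise from RPT to RPTi passed throughout (log2 fold change 1.12, adjusted p = 0.00029). Its fall with thrombin (-0.60, adjusted p = 0.0258) was lost on leaving out RP replicate 1 (-0.53, adjusted p = 0.0933) or 3 (-0.56, 0.0691), or RPT replicate 1 (-0.52, 0.0916) or 3 (-0.56, 0.0611). It was also lost with RP and RPT alone (-0.59, 0.0625) and with limma on log2(FPKM + 1) (-0.21, 0.0722) or log2(FPKM + 0.1) (-0.49, 0.0603). Of 5 vitamin K and protein C genes tested, 3 fell with thrombin and 0 rose, where 15.2% of all genes fell, and 3 rose with inhibitor against thrombin and 0 fell, where 20.4% of all genes rose. They were Gas6, a protein S relative (1.93-fold lower, then 1.58-fold higher), the epoxide reductase gene Vkorc1 (1.50-fold and 2.25-fold) and the carboxylase gene Ggcx (1.25-fold and 1.64-fold), with adjusted p of 0.0025 or lower in each case.

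Plasminogen-binding and uptake receptors numbered 8, of which 2 rose with thrombin (Anxa2, Eno1) and 1 fell (Mrc2, -0.27, adjusted p = 0.00414), beside 13.6% and 15.2% of all genes. In RPTi against RPT, 3 fell (Anxa2, Eno1, S100a10) and 2 rose, Mrc2 (0.39, adjusted p = 0.000157) and Vldlr (0.41, adjusted p = 0.00181), both named after their values were seen, beside 21.1% and 20.4% of all genes. Annexin A2 (Anxa2), a plasminogen receptor, was at 1565, 1560 and 1465 CPM in RP, at 1839, 1868 and 1890 CPM in RPT and at 1076, 1161 and 1016 CPM in RPTi, with no overlap. The order of groups was that of Serpine2. Its partner S100a10 did not pass with thrombin (0.14, adjusted p = 0.203) and was 1.67-fold lower in RPTi than in RPT (adjusted p = 7.23e-06). Eno1, a glycolytic enzyme that also binds plasminogen, rose 1.31-fold and was 1.54-fold lower with inhibitor. Among the protease-activated receptors, F2rl1 rose 1.95-fold with thrombin and was 2.48-fold lower with inhibitor. F2r, which thrombin cleaves, moved the opposite way, at -0.26 (adjusted p = 0.0237) and 0.50 (adjusted p = 0.000174). Its fall with thrombin was lost when RP replicate 1 (-0.22, adjusted p = 0.0989), RPT replicate 1 (-0.26, 0.0602) or RPT replicate 2 (-0.21, 0.0755) was left out, and with RP and RPT alone (-0.25, 0.0518).

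**Figure D5:**
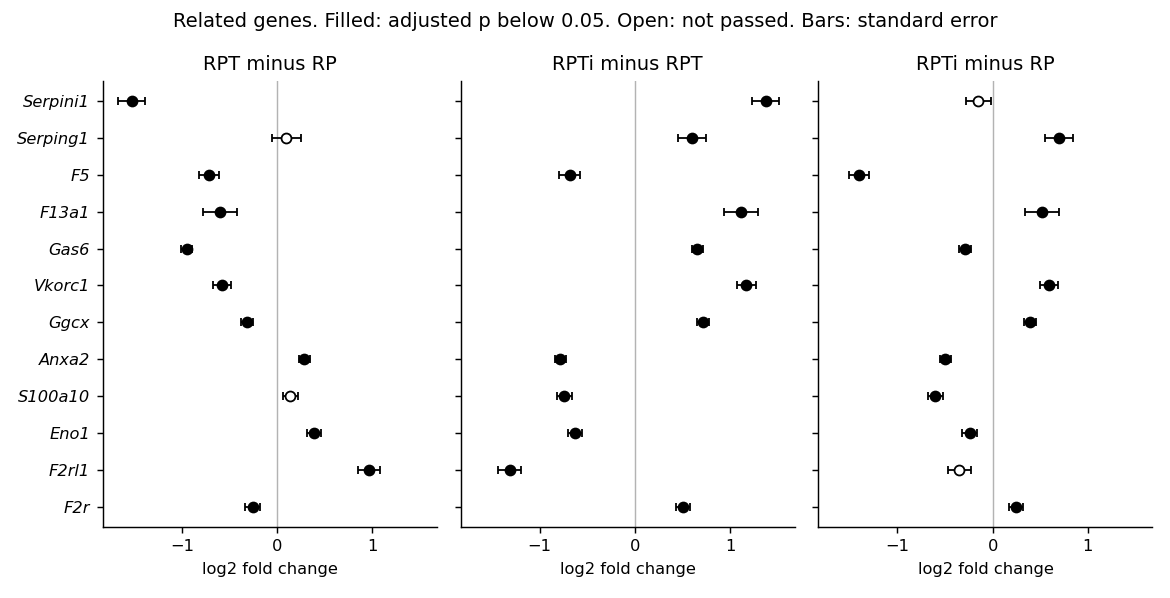
Log2 fold change (x axis) of 12 further genes of the pathways in the 3 comparisons, with bars for the standard error and filled points where the adjusted p is below 0.05. Serping1 lies right of 0 and F5 left of 0 in all 3 panels, while the others change side between the first and the second panel.

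Genes with the most similar profile were sought for each member among 9344 or 9345 other genes with a mean of at least 5 CPM, by Pearson's r of log2 CPM over the 9 libraries. These values are descriptions, since the libraries share their groups. For Tfpi2 they were Klf6 (r = 0.996), the chemokine gene Ccl2 (0.992) and Bhlhe40 (0.987). For Procr they were the stromelysin gene Mmp3 (0.993), Nek2l1 (0.989) and the chemokine gene Cxcl1 (0.986), and for Plaur Cxcl16 (0.991), the latent TGF-beta binding protein gene Ltbp2 (0.990) and Ier3 (0.986). Serpine2 was nearest to the chaperone gene Hsp90ab1 (0.998), the ERK phosphatase gene Dusp5 (0.997) and the ETS factor gene Elk3 (0.997). Plau was nearest to Tle3 (0.996), Ret and Emilin2 (0.984 each). Thbd was nearest to Clcn3 (0.973), Mtmr7 (0.963) and Nr4a1 (0.958), and F3 to Top1mt (0.968), Birc3 (0.959) and Il6st (0.946). The values for Plat (Ccdc130, 0.945) and Tfpi (Atp11b, 0.927) were lower. An r of at least 0.9 was reached by 649 genes for Serpine2, 290 for Tfpi2, 249 for Plaur, 239 for Procr, 166 for Plau, 49 for Thbd, 33 for F3 and 4 each for Plat and Tfpi.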

How the data were processed

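Poly-A RNA of 9 libraries was sequenced as paired-end reads, per the labels' protocols. The authors deposited whole-number read counts per Ensembl gene and FPKM values in 1 table. Per the submitters' processing notes, the build was Rnor_6.0 and the tools included HTSeq 0.11.2, HISAT2 and DESeq2 1.26.0, without roles. The annotation release was not given in the sources used here, nor was the strand setting. Overlapping or antisense genes therefore cannot be told apart. The deposited FPKM equalled count divided by gene length and library total (largest relative difference 2.5e-13), with no TMM scaling.

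Counts were filtered with filterByExpr (minimum count 10, minimum total 15), which kept 13856 of 18924 genes, scaled by TMM and fitted with edgeR 4.0.16 (glmQLFit, glmQLFTest; R 4.3.3) over all 9 libraries with 1 coefficient per group. Genes are said to have risen or fallen where the Benjamini-Hochberg p, adjusted over all tested genes, was below 0.05. All adjusted p-values are from that test unless another tool is named. SE is the log2 fold change over the root of F, and intervals are 95%. The test was checked on simulated counts. Alternatives used DESeq2 1.42.0 and limma 3.58.1, among others, and each library was left out in turn. They were extended to named related genes after the data had been seen, but not to Serpinb2, Mrc2, Vldlr, Lrp1, Igf2r or Plgrkt.

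The members and gene lists were chosen with earlier results of these data known. Named in the text are all members, up to 3 called genes with the smallest p from each related group, F2r, and the 3 genes of most similar profile to each member; of the last, the lower ones for Plat and Tfpi are not printed. Fold changes of low genes depend on a prior count of 0.125. Of 48 related symbols 11 were not analysed here, as the table has no row so named, and 1 of the tested genes is counted but not reported here. No coordinates other than those of the RefSeq windows are given, since their build differs from that of the files. Equal replicate numbers were not treated as pairs.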

Additional observations from a re-analysis of the deposited data

How the results depend on the processing

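Of 243 member fold changes obtained under alternatives that kept all libraries, 239 kept their direction and side of the threshold, 3 lost the call and 1 gained it. With single libraries left out, 220 of 243 did so, 18 lost the call, 1 gained it and 4 changed sign, all 4 in comparisons not called with all libraries: Thbd in RPT minus RP without RPT replicate 3 (-0.0168, in a range over left-out libraries up to 0.1139), Tfpi in RPTi minus RP without RP replicate 3 (0.0899) or RPTi replicate 2 (0.0806, range from -0.1066), and Plat in RPTi minus RPT without RPT replicate 3 (0.0116, range from -0.1202).

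The number of members that rose in RPTi minus RPT was 0 with limma on log2(FPKM + 1) and 0 with limma on log2(FPKM + 0.1), in place of 1. Over left-out libraries that number ran from 0 to 1, and the number of members that rose in RPTi minus RP ran from 1 to 3, in place of 2.

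Equal replicate numbers did not visibly deviate together. Correlations of their deviations from group means ran from -0.114 to 0.124, inside the range of -0.161 to 0.143 for unequal numbers. A replicate block left 6 members rising and 0 falling in RPT minus RP, 1 rising and 6 falling in RPTi minus RPT, and 3 rising and 2 falling in RPTi minus RP, where Plat was added (0.22, adjusted p = 0.0305). It raised the counts over all genes to 2514 rising and 2560 falling, 3255 and 3443, and 2333 and 2356.

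Among the related genes run under the alternatives, calls in RPTi minus RP were the least steady. F13a1 and F2r each lost theirs with library totals alone (0.46, adjusted p = 0.0675, and 0.19, adjusted p = 0.0782) and with either limma fit. Both also lost it on leaving out any single RP library, or RPTi replicate 2 or 3. F13a1 lost it besides without RPTi replicate 1, RPT replicate 1 or the filter on low counts. Eno1 lost its call in 6 of 9 cases with a library left out. F2rl1, not called, passed with library totals alone (-0.40, adjusted p = 0.033) and with a replicate block (-0.35, 0.0393). It also passed with RP and RPTi alone (-0.35, 0.0492), limma on log2(FPKM + 0.1) (-0.39, 0.0426) and without RPT replicate 3 (-0.35, 0.03). Depth limited Tfpi2 most, at 27 to 48 counts in RP and 33 to 46 in RPTi.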

Other observations

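Replicate 3 of RP and replicate 3 of RPT each held the highest value of their group for Plat, F3, Tfpi, Tfpi2 and Thbd, and the lowest for Plau and Plaur. In RP, F3 was at 22.7 CPM there against 17.7 and 17.9 in the other libraries, and in RPT Tfpi was at 18.3 against 14.1 and 14.1. In RPTi, replicate 3 was highest for Tfpi, Thbd and Procr and lowest for Plat, F3, Tfpi2, Plau and Plaur. Equal numbers are not known to mark a shared culture.

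Transcripts of 6 of 8 plasminogen-binding and uptake receptors were abundant beside those of the activators. Plgrkt (11.15 ± 1.00 FPKM in RP) and Vldlr (24.2 ± 1.37 FPKM) instead lay near the activators. In RP, Anxa2 stood at 1120 ± 33.9 FPKM (SD, n = 3), S100a10 at 735.7 ± 22.3, Eno1 at 1054 ± 75.1, Igf2r at 178 ± 7.79, Lrp1 at 177 ± 9.52 and Mrc2 at 129 ± 2.41, against 26.6 ± 2.99 FPKM for Plat and 11.6 ± 1.49 FPKM for Plau. Lrp1, which clears activator and inhibitor complexes, did not pass in any comparison (adjusted p = 0.152, 0.0527 and 0.719), nor did Igf2r (0.455, 0.934 and 0.522). These receptors and their values were chosen after the data had been seen.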
